A study of Mus musculus with 24 samples.

Results

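The 10 genes described here encode proteins that shape the extracellular matrix: the 4 tissue inhibitors of metalloproteinases (Timp1, Timp2, Timp3 and Timp4), the trimeric thrombospondins Thbs1 and Thbs2, the extracellular heparan sulfate 6-O-endosulfatases Sulf1 and Sulf2, the gelatinase Mmp2 and the membrane-bound collagenase Mmp14. They were taken by symbol from the expression tables, where 10 of 10 were found among 17501 genes of mouse embryonic stem cells (mESC) and 10 of 10 among 16024 genes of neural progenitor cells (NPC). Timp3, Thbs1 and Sulf1 were chosen by their change between lines in these tables, so their values are given as a description without a test. The other 7 were added as functional relatives and were tested. All 10 passed the filter of at least 1 normalised CPM (reads scaled to library size) in at least 2 libraries in both cell types.

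The study, whose title links longer CAG tracts of Htt, the Huntington's disease gene, to faults of splicing, sequenced total RNA of 6 cell lines in both cell types, with 2 libraries for each line and cell type and 24 in all. One line was wild type (WT) and another carried an Htt knockout (KO). The other 4 were heterozygous Hdh knock-in lines, named for the CAG repeats of the altered allele: Q20, Q50, Q92 and Q111. The mESC had been grown in serum with leukemia inhibitory factor on an irradiated CF-1 fibroblast feeder layer. The NPC had been derived from mESC in N2B27 medium and kept on laminin with FGF and EGF. Each genotype was represented by a single line, so genotype and line cannot be told apart. The p-values between lines measure the spread between the 2 samples of a line. Those of the slopes on repeat length also take in how far the lines depart from a straight line, with the libraries of a line as separate points.

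The matrix around a cell is built and cut continuously. Mmp14 sits in the plasma membrane, cleaves collagen and activates the secreted zymogen of Mmp2, and Timp2 takes part in that activation as well as blocking both proteases. Timp3 differs from its relatives in binding to the matrix itself and in its wide range of targets, which includes several ADAM and ADAMTS proteases. Thrombospondins are matricellular proteins, which signal from the matrix without building its fibres. In the nervous system, astrocytes release Thbs1 and Thbs2, which promote synapse formation through the neuronal receptor Cacna2d1. Sulf1 and Sulf2 remove 6-O-sulfates from heparan sulfate chains and so change how cells respond to Wnt, FGF and other ligands.

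The mESC libraries held 58546211 to 81502284 reads each and the NPC libraries 48525333 to 118038952. The targeted gene Htt was lower in the NPC KO libraries, at 100 and 94.9 normalised CPM, than in the WT libraries at 137 and 177. In mESC the library labelled KO 1 held 139 CPM and the library labelled KO 2 held 68.5 CPM, against 124 and 113 in WT, so Htt RNA did not separate the labels in mESC. Among the NPC, the Q20 libraries stood apart. They held the pluripotency gene Pou5f1 at 90.1 and 87.4 CPM, while it was at most 0.405 CPM in the other 10 libraries. Stmn2, from the list of neuronal markers, was at 103 and 128 CPM in Q20 NPC. Stmn2 was also at 173 to 391 CPM in the mESC libraries. Of the other neuronal markers Dcx was higher in Q20 than in WT NPC too, at 38.6 and 52.2 against 8.72 and 9 CPM. Tubb3 was higher as well, at 32.6 and 121 against 20.4 and 11.6 CPM. So were Snap25, at 1.43 and 2.02 against 0.298 and 0.54 CPM, and Rbfox3, at 1.59 and 1.54 against 1.33 and 0.908 CPM. Map2 alone was lower, at 599 and 646 against 1590 and 1230 CPM. The summed level of the list, most of which was Map2, was lower too. The neural progenitor markers summed to 3970 and 4110 CPM in Q20 NPC and to between 5200 and 9240 CPM in the other knock-in libraries. In WT the sums were 7040 and 6500 CPM. Within this list Sox1 went the other way, at 13 and 11.8 CPM in Q20 against 1.49 and 0.565 in WT. Hes5 of Q20, at 64.1 and 37.3 CPM, overlapped WT at 74.5 and 7.89 CPM. In mESC, libraries with the same replicate number resembled each other across lines.

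In GENCODE M21 on GRCm38, 3 of the 4 Timp genes lie inside a synapsin gene on the opposite strand: Timp1 (chrX:20870166-20874735, plus strand) in Syn1, Timp3 (chr10:86300372-86349506, plus strand) in Syn3 and Timp4 (chr6:115241892-115252205, minus strand) in Syn2. This nesting was not used to choose them. Exons of Timp3 share 1733 of 8144 bases with Syn3 exons and those of Timp4 share 90 of 5894 bases with Syn2, while Timp1 shares 0 of 888 bases with Syn1. Whether the counting used strand is not given in the sources used here, so reads of the shared bases cannot be assigned to either gene. In NPC Syn1 was between 1.59 and 3.67 CPM, Syn2 between 10.4 and 42.4 CPM and Syn3 between 1.6 and 6.09 CPM. Syn2 reached the level of Timp4 in Q92, at 23.3 and 24.3 CPM against 26.6 and 18.2 CPM. The same limit on strand holds for 208 of 6073 exon bases that Thbs1 shares with the noncoding Gm29233 and for 154 of 5871 that Sulf2 shares with Ncoa3, each on the opposite strand.

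The sequences upstream of these 3 nested inhibitors are shown because the genes share their setting but not their pattern over the lines. They are RefSeq promoter windows on GRCm38.p6, written 5′ to 3′ on the strand of the gene, ending before the first annotated exon. Timp1 is chrX:20869916-20870165 (plus), Timp3 chr10:86300162-86300371 (plus) and Timp4 chr6:115252206-115252455 (minus). Capitals mark matches on either strand to the SP1 motif, spelled GGGCGG, the TEAD motif, spelled GGAATG, or the CCAAT box, which is spelled as it is named. The AP-1 motif, spelled TGANTCA, and the TATA box, spelled TATAAA, were searched on both strands as well.
Timp1: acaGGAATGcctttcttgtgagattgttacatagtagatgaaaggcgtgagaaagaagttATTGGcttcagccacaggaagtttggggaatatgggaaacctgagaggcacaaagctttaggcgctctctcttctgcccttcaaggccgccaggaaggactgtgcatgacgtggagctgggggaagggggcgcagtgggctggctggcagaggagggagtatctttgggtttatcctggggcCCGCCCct
Timp3: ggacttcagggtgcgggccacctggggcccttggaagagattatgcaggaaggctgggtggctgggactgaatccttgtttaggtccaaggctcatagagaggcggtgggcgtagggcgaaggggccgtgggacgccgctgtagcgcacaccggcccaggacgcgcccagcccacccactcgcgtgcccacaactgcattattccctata
Timp4: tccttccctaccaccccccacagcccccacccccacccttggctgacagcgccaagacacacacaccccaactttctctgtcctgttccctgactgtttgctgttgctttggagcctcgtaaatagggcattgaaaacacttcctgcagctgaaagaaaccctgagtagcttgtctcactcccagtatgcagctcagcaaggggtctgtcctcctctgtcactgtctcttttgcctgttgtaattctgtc
The Timp1 window held 1 match each to the SP1 motif, the TEAD motif and the CCAAT box, and none of these overlapped another. Of 32851 promoter windows of 250 bases, 32.7% held the SP1 motif, 12.6% the TEAD motif and 33.8% the CCAAT box. The Timp3 and Timp4 windows held 0 matches to the 5 motifs, and the AP-1 motif and the TATA box had 0 matches in the Timp1 window too. The AP-1 motif occurs in 6.75% and the TATA box in 12.4% of windows of 250 bases. For windows of 210 bases, the length for Timp3, the shares are 5.84% for AP-1, 26.7% for SP1, 11.1% for TEAD, 29.9% for the CCAAT box and 9.56% for the TATA box. CG dinucleotides numbered 6 in Timp1, 13 in Timp3 and 2 in Timp4, and 49.6%, 75.9% and 18.8% of windows of the same length held fewer. The matches describe letters in these windows and not bound sites.

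Timp3 led the 4 inhibitors per exon length in WT NPC by the line mean and followed the repeat length in the knock-in NPC. Its level was 627 and 153 CPM in the WT libraries and 277 and 91.6 CPM in KO. The knock-in libraries held 352 and 352 CPM in Q20, 191 and 183 in Q50, 40.1 and 38.2 in Q92 and 30.1 and 32.7 in Q111. The 4 knock-in lines did not overlap, and Q20 lay 11.2-fold above Q111 by the line means, whereas the libraries of WT and of KO differed from each other more than Q20 differed from Q50. The change over the 91 repeats from Q20 to Q111 was -3.70 (SE 0.212) on the scale of log2(CPM + 1), used for every log2 value here, given without a test because this change chose the gene.

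Timp2, the inhibitor that also helps to activate Mmp2, had the same order over the knock-in lines and was tested. It lies at chr11:118301069-118355740 on the minus strand. Timp2 was at 20.2 and 20 CPM in WT, 25.5 and 36.2 in KO, 88.4 and 82.6 in Q20, 27.9 and 28.8 in Q50, 16.4 and 18.2 in Q92 and 9.61 and 8.48 in Q111. The Q20 libraries stood above the other 10, the Q111 libraries stood below the other 10, and KO and Q50 overlapped. Q20 exceeded WT by 2.03 (SE 0.188, adjusted p = 0.000175 by limma), and the level fell by 2.84 over 91 repeats (SE 0.273, adjusted p = 0.000838).

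Timp1 and Timp4 followed neither of these orders. Timp1, an inhibitor known to be induced by cytokines and growth factors, was at 26.4 and 25.9 CPM in the Q111 libraries. The other 10 libraries held 1.7 to 8.36 CPM of Timp1, with WT at 1.8 and 4.92 and Q92 at 1.7 and 1.74. Q111 thus stood 4.33-fold above KO, the next line, while WT, KO, Q20 and Q50 overlapped one another. Timp4, known for its expression in brain and heart, was highest in WT at 156 and 135 CPM and stood at 83.8 and 63.5 in KO. The knock-in libraries held 47.4 and 56.6 CPM of Timp4 in Q20, 128 and 118 in Q50, 26.6 and 18.2 in Q92 and 54.8 and 61.6 in Q111. Timp4 of Q20 fell below WT by 1.47 (SE 0.214, adjusted p = 0.00228 by limma), and Q20 and Q111 overlapped.

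**Figure D1:**
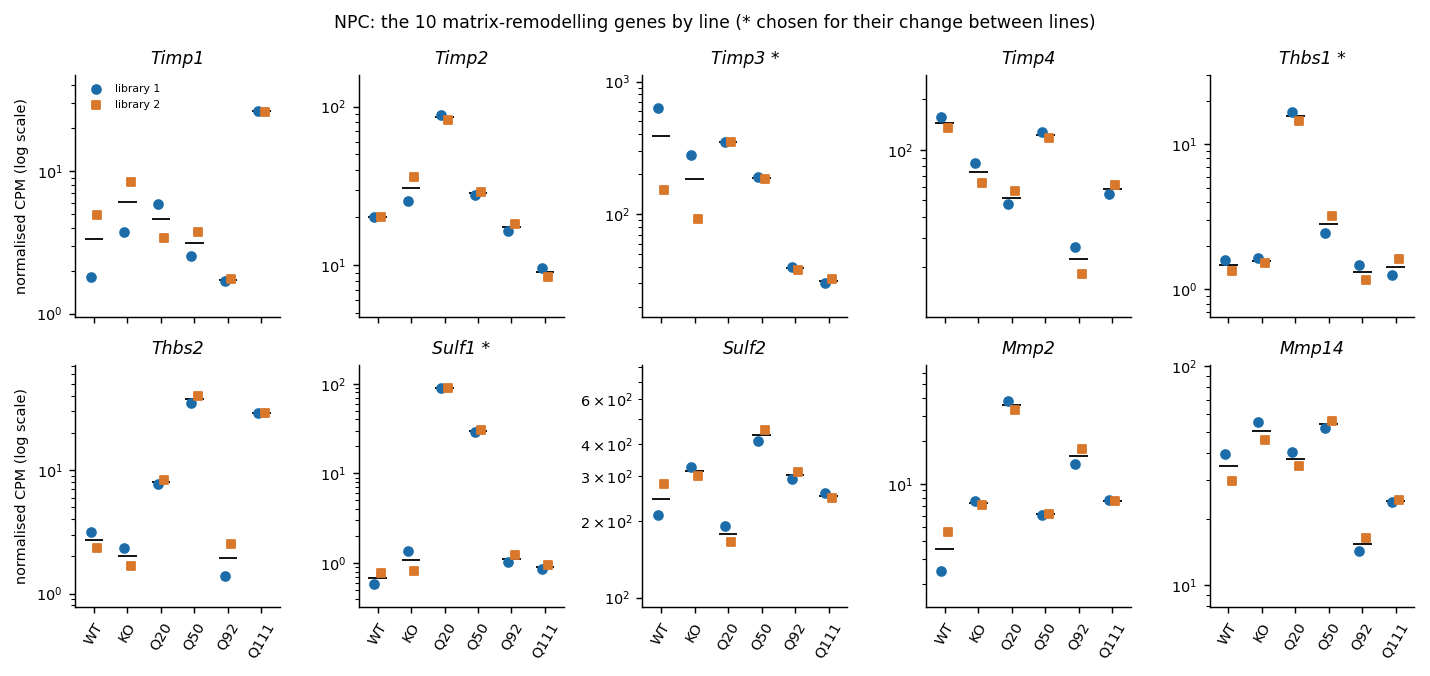
Normalised CPM (log axis) of the 10 genes in the 12 NPC libraries by line; circles are library 1, squares library 2 and horizontal bars the mean of both. By the line means Sulf1, Thbs1, Timp2 and Mmp2 peak in Q20, Thbs2, Sulf2 and Mmp14 in Q50 and Timp1 in Q111. For Mmp14 the Q50 and KO libraries overlap.

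The makeup of the Timp family therefore differed between the NPC lines. With each gene divided by its exon length, Timp3 made up 69.6% and 35.9% of the 4 inhibitors in the WT libraries, where Timp4 took 23.9% and 43.7%, and 53.7% and 55.5% in Q20. In Q111 Timp1 took 65.8% and 63.7%, and Timp3 8.18% and 8.76%. In Q92 the 4 inhibitors were closer to even, with means from 13% ± 0.916 (SD, n = 2) for Timp1 to 32.1% ± 0.643 (SD, n = 2) for Timp3. The summed level of the family was 15.6 and 14.4 CPM per kilobase in Q92 and 40.7 to 111 CPM per kilobase in the other 10 NPC libraries. In mESC Timp1 led in each of the 12 libraries, with 71.7% to 92.3% of the family.

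**Figure D2:**
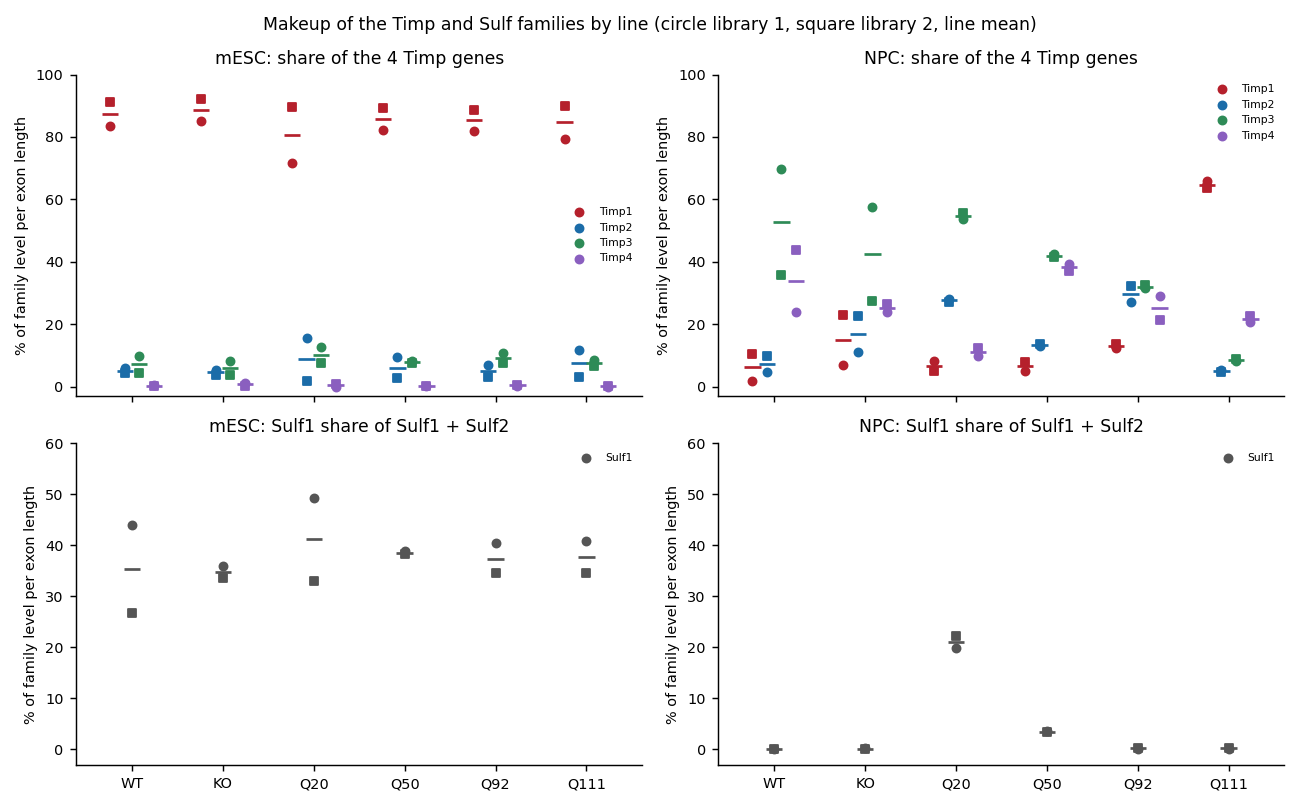
Share of each Timp gene in the summed level of the 4 (top) and share of Sulf1 in Sulf1 + Sulf2 (bottom), both per exon length in percent, by line in mESC (left) and NPC (right); circles and squares are the 2 libraries and short lines their mean. By the line means Timp1 leads in mESC and in Q111 NPC and Timp3 in the other NPC lines, and Sulf1 exceeds 1% in NPC in Q20 and Q50.

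Thbs1 and Thbs2 had different patterns in NPC. Thbs1 (chr2:118111876-118127133, plus strand), which activates latent TGF-beta and restrains vessel growth, was at 16.8 and 14.5 CPM in Q20 and at 2.44 and 3.2 CPM in Q50. In the WT, KO, Q92 and Q111 libraries Thbs1 stayed between 1.16 and 1.64 CPM. Among these 4 lines KO lay above Q92 and the other pairs overlapped. Q20 was 10.7-fold above WT by the means, a difference that helped to choose the gene. Thbs2 (chr17:14665500-14694235, minus strand), known to limit vessel growth and matrix metalloproteinase levels, was highest in Q50 at 35.3 and 39.8 CPM and in Q111 at 29 and 29 CPM. Thbs2 stood at 7.79 and 8.4 CPM in Q20, 3.14 and 2.32 in WT, 2.35 and 1.67 in KO and 1.39 and 2.5 in Q92. Thbs2 was thus high in Q50 and Q111 and low in Q92, whose repeat length lies between them. Thbs2 of Q20 rose above WT by 1.29 (SE 0.236, adjusted p = 0.00729 by limma), and this call was lost with the spread taken from the WT and Q20 libraries alone (adjusted p = 0.0918) and without the second Q20 library (adjusted p = 0.055). Per exon length Thbs1 made up 71.3% and 66.6% of the pair in Q20 and 4.74% to 8.48% in Q50 and Q111.

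Sulf1 was nearly silent in most NPC libraries and abundant in Q20 and Q50, whereas Sulf2 was abundant throughout. Sulf1 (chr1:12692277-12861192, plus strand) stood at 90 and 90.7 CPM in Q20 and 29.1 and 30.2 CPM in Q50. The other 8 libraries held 0.578 to 1.37 CPM of Sulf1, which in WT were 33 and 63 reads. By the means Q20 exceeded WT 134-fold and Q111 100-fold, and these differences chose the gene. Sulf2 (chr2:166073089-166155663, minus strand) was at 210 and 278 CPM in WT, 324 and 300 in KO, 190 and 165 in Q20, 410 and 453 in Q50, 292 and 311 in Q92 and 256 and 245 in Q111. Sulf2 was lowest in the line with the most Sulf1 and highest in the other line that had it. Sulf1 made up 19.8% and 22.2% of the 2 sulfatases per exon length in Q20, 3.56% and 3.35% in Q50 and at most 0.219% in the remaining NPC libraries.

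Of the proteases, Mmp2 was the one that rose in Q20 NPC. Mmp2 (chr8:92827291-92853420, plus strand) was at 2.47 and 4.59 CPM in WT, 7.62 and 7.07 in KO, 37.8 and 33 in Q20, 6.09 and 6.18 in Q50, 13.8 and 17.6 in Q92 and 7.68 and 7.63 in Q111. WT was lowest, and Q20 and then Q92 were highest with no overlap. Q20 exceeded WT by 3.04 (SE 0.246, adjusted p = 8.29e-05 by limma). Mmp14 (chr14:54431612-54445364, plus strand), its activator, was at 39.5 and 29.9 CPM in WT, 55.2 and 45.7 in KO, 40.2 and 35 in Q20, 52.2 and 56.2 in Q50, 14.2 and 16.4 in Q92 and 23.9 and 24.4 in Q111. For Mmp14 Q92 and Q111 lay below the other lines, and Q20 overlapped WT. Per exon length Mmp2 made up 62.4% and 62.5% of the 2 proteases in Q20 and 63.2% and 65.5% in Q92, against 9.96% and 21.3% in WT.

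In NPC 7 of the 7 relatives differed among the 6 lines (limma F test, adjusted p from 2.87e-05 for Thbs2 to 0.00479 for Timp1), where 38.0% of the 13206 genes tested were called. Without the Q20 line, left out after its markers were seen, 7 of 7 were still called. The share of all genes called in that fit is not given here. In a bulk library fewer cells of a type and less RNA per cell cannot be told apart, which holds for each difference described here.

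For Q20 against WT in NPC, 4 of the 7 relatives were called. Timp2, Mmp2 and Thbs2 rose and Timp4 fell, beside 14.5% of all genes called, 9.97% higher and 4.57% lower. Timp1 (0.43, adjusted p = 0.602), Mmp14 (0.12, adjusted p = 0.745) and Sulf2 (-0.45, adjusted p = 0.092) were not called. Sulf1 differed by 5.77 and Thbs1 by 2.75, while Timp3 differed by 0.18 with an SE of 0.641, the WT and Q20 libraries overlapping. Markers of other cell types moved with this contrast. The 11 feeder fibroblast markers were each at 1 CPM or above in Q20 and Q50, where they summed to 392 and 329 and to 1100 and 1120 CPM, against 185 and 234 CPM in WT, 256 and 373 in KO and 154 to 206 in Q92 and Q111. Within the list Col1a1 and Col1a2 were under 1 CPM in WT, KO, Q92 and Q111 NPC and Col3a1 was at 240 and 194 CPM in Q20 against 24 and 21.8 CPM in WT. Others went the opposite way, with Fbn1 at 64.1 and 58.2 CPM in Q20 against 95.1 and 172 CPM in WT, and Prrx1 at 20.3 and 21.4 against 50.7 and 30.9 CPM. The smooth muscle and pericyte markers summed to 36.2 and 26.5 CPM in Q20, 4.62 and 20.2 in WT and 1.68 and 2.18 in Q111. Astrocyte markers summed to 2300 and 2030 CPM in Q20 and 1460 and 1170 in Q50. They were lower in Q92, at 346 and 350 CPM, and in Q111, at 284 and 274, and stood at 1970 and 1180 in WT. The sum thus moved in the same direction over the knock-in lines as Timp3 and Timp2. Members of the list differed: Aldh1l1 was at 3.75 and 4.1 CPM in Q92 but at 137 and 131 in Q111. S100b was higher in Q50, at 21.9 and 15.7 CPM, than in Q20, at 11.7 and 9.27 CPM. Within the pluripotency list, Pou5f1 and Nanog were under 2 CPM outside Q20, while Esrrb and Tdgf1 were under 1 CPM in Q20. The part of these cell types in the values of the matrix genes was not tested.

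**Figure D3:**
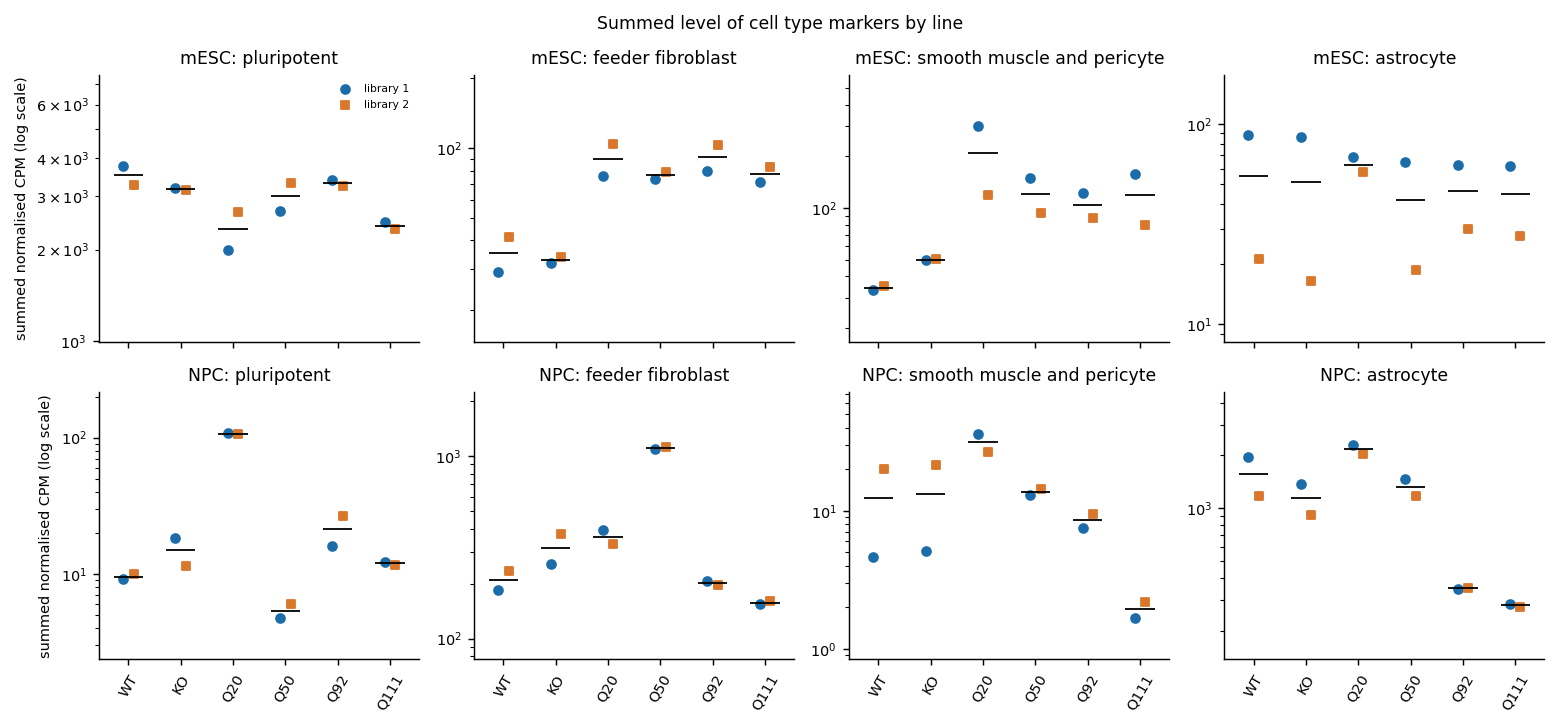
Summed normalised CPM (log axis) of 4 marker lists by line in mESC (top) and NPC (bottom); circles and squares are the 2 libraries and bars their mean. In NPC the pluripotency list is highest in Q20, the feeder fibroblast list in Q50 and the astrocyte list lowest in Q92 and Q111; in mESC the fibroblast and smooth muscle lists are higher in the 4 knock-in lines than in WT and KO.

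For KO against WT in NPC, 0 of the 7 relatives were called by limma or by edgeR, beside 1.42% of all genes by limma. An unadjusted limma p under 0.05 was found for 5 of the 7, beside 1755 of the 13206 genes tested. The largest differences were -0.98 for Timp4 (SE 0.214, adjusted p = 0.0812) and 0.92 for Mmp2 (SE 0.246, adjusted p = 0.141). Timp2 (0.57), Mmp14 (0.53) and Sulf2 (0.37) were the others, with adjusted p between 0.221 and 0.342. This count depended on the second WT library. Without it the differences were 1.26 for Mmp2, 0.57 for Sulf2 and -1.09 for Timp4. That fit leaves 1 WT library and the share of all genes called in it is not given here, so its calls are not read. Among the chosen genes Timp3 differed by -0.95 (SE 0.641), with KO and WT overlapping. That difference moved to 0.06 without the first WT library and to -1.97 without the second. WT and KO libraries of the same number deviated together over all genes (correlation 0.467). Within each number KO was below WT for Timp3 and above it for Timp1, a comparison of 2 pairs without a test.

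Over the 4 repeat lengths in NPC, 1 of the 7 relatives was called. Timp2 fell, as given above, beside 22.0% of all genes called, 12.0% rising and 10.1% falling. Mmp14 (-1.18, adjusted p = 0.0928), Mmp2 (-1.30, adjusted p = 0.217) and Timp1 (1.48, adjusted p = 0.331) were not called, and Timp4, Thbs2 and Sulf2 had adjusted p of 0.473 or more. The chosen genes Timp3, Thbs1 and Sulf1 had slopes of -3.70, -2.66 (SE 0.496) and -6.11 (SE 0.435) over the 91 repeats. Timp2 was also called without Q20 (-2.18, adjusted p = 0.0191), but with 1 mean value for each line it was not (adjusted p = 0.295). Without Q20 Sulf2 turned from 0.29 to -1.16 and was called (adjusted p = 0.0122), and Mmp2 turned to 0.78 (adjusted p = 0.537). Without Q111 Timp1 turned to -1.28 (adjusted p = 0.0608). The Thbs1 slope shrank to -1.06 without Q20.

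**Figure D4:**
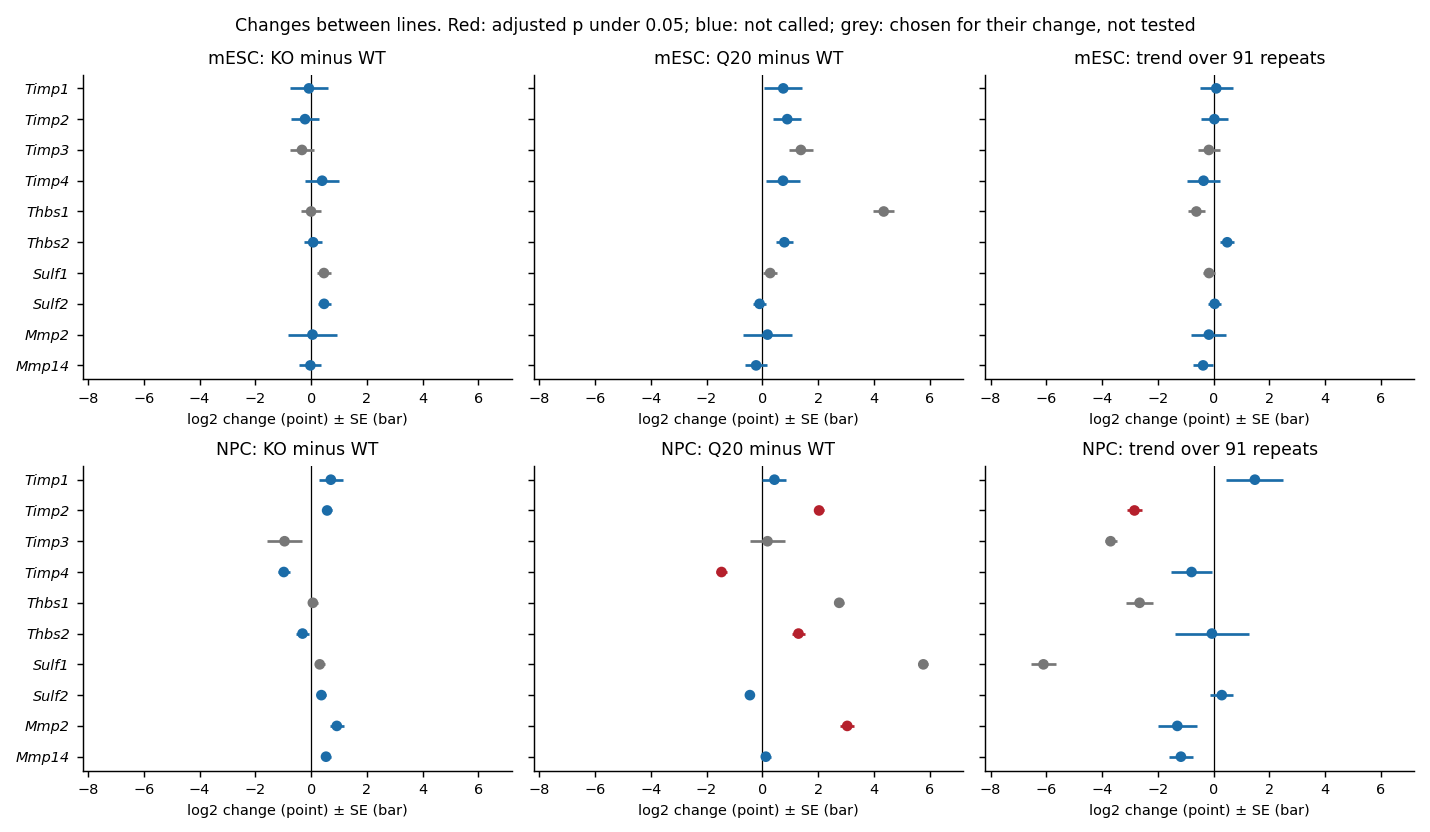
Log2 change ± SE of each gene for KO minus WT, Q20 minus WT and the trend over 91 repeats, in mESC (top) and NPC (bottom). Red points are called at an adjusted p under 0.05 by limma, blue points are not, and grey points are the 3 genes chosen by their change; no relative is called in mESC.

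In mESC the relatives changed less than the chosen Thbs1. Thbs1 was at 9.56 and 13.7 CPM in WT and 8.29 and 15.7 CPM in KO. The knock-in libraries held 260 and 247 CPM of Thbs1 in Q20, 143 and 159 in Q50, 103 and 202 in Q92 and 145 and 174 in Q111. Each of the 8 knock-in libraries thus stood above each of the 4 WT and KO libraries, with Q20 21.8-fold above WT, and KO overlapped WT. By line means per exon length Thbs1 was the most abundant of the 10 genes in Q20 and Q50 mESC, where WT and KO had Sulf2 first, although Timp1 exceeded Thbs1 in the second library of Q20 and of Q50.

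The other chosen genes moved less in mESC. Timp3 was at 13.3 and 7.95 CPM in WT, 9.95 and 6.4 in KO and 13.4 to 34.2 CPM in the knock-in libraries, so it separated the same lines by a narrow margin. Sulf1 was between 89.5 and 177 CPM in the 12 mESC libraries. Q50, at 161 and 177 CPM, lay above WT, Q92 and Q111 and overlapped Q20. Per exon length it made up 26.7% to 49.3% of the 2 sulfatases.

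Some marker lists of other cells separated the mESC lines by their sums, as Thbs1 did by its level. The 10 feeder fibroblast markers measured summed to 29.2 and 41.3 CPM in WT, 31.8 and 34 in KO and 71.8 to 104 in the knock-in libraries. Col1a2 was at 0.808 to 2.6 CPM in WT and KO and at 17.5 to 31.4 CPM in the knock-in libraries, while the fibroblast gene Dcn was at most 1.28 CPM in any of the 12. Other members of the list overlapped between these lines, namely Col3a1, Pdgfrb, Thy1, Fbn1, Twist1 and Loxl1. Thy1 was at 3.66 to 11.3 CPM in WT and KO and at 4.37 to 12.3 CPM in the knock-in libraries. Fbn1 was at 8.27 to 17.3 and at 10.2 to 31.4 CPM. The 6 smooth muscle and pericyte markers had sums of 33.3 to 50.6 CPM in WT and KO and 80 to 299 in the knock-in libraries. Within that list Des did not separate the lines, at 24.5 to 44.5 CPM in WT and KO and 10.4 to 51.7 CPM in the knock-in libraries. The neural progenitor markers separated the same lines by their sums. These were 139 to 206 CPM in WT and KO and 224 to 547 CPM in the knock-in libraries. Of these markers Nes alone separated the lines, at 8.42 to 26 CPM against 41.5 to 158 CPM, while Vim and the others overlapped. For the other 5 marker lists the sums of the knock-in libraries overlapped those of WT and KO. The part of such cells in the Thbs1 level was not tested.

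For the 7 relatives in mESC, 0 were called among the 6 lines (1 with an unadjusted p under 0.05), 0 for KO against WT (0 unadjusted), 0 for Q20 against WT (1 unadjusted) and 0 for the repeat length (0 unadjusted), by limma and by edgeR. Over all genes limma called 0.201%, 0.0144%, 0.323% and 0%. An unadjusted p below 0.05 was found for 1379, 553, 1716 and 358 of the 13916 genes, in the same order. With the replicate number as a block, which fits the pairing of the mESC libraries, the relatives again gave 0 in each comparison, while the shares over all genes rose to 8.67%, 0.115% and 10.6% and stayed at 0% for the trend. The lowest adjusted p without the block was that of Thbs2, 0.325 among the lines. Its values were 1.93 and 1.22 CPM in WT, 2.36 and 1.14 in KO and 2.79 to 5.35 in the knock-in libraries, which did not overlap WT and KO. Timp4 stayed between 0.0741 and 3.27 CPM in mESC and was the lowest of the 10 genes per exon length in each line.

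**Figure D5:**
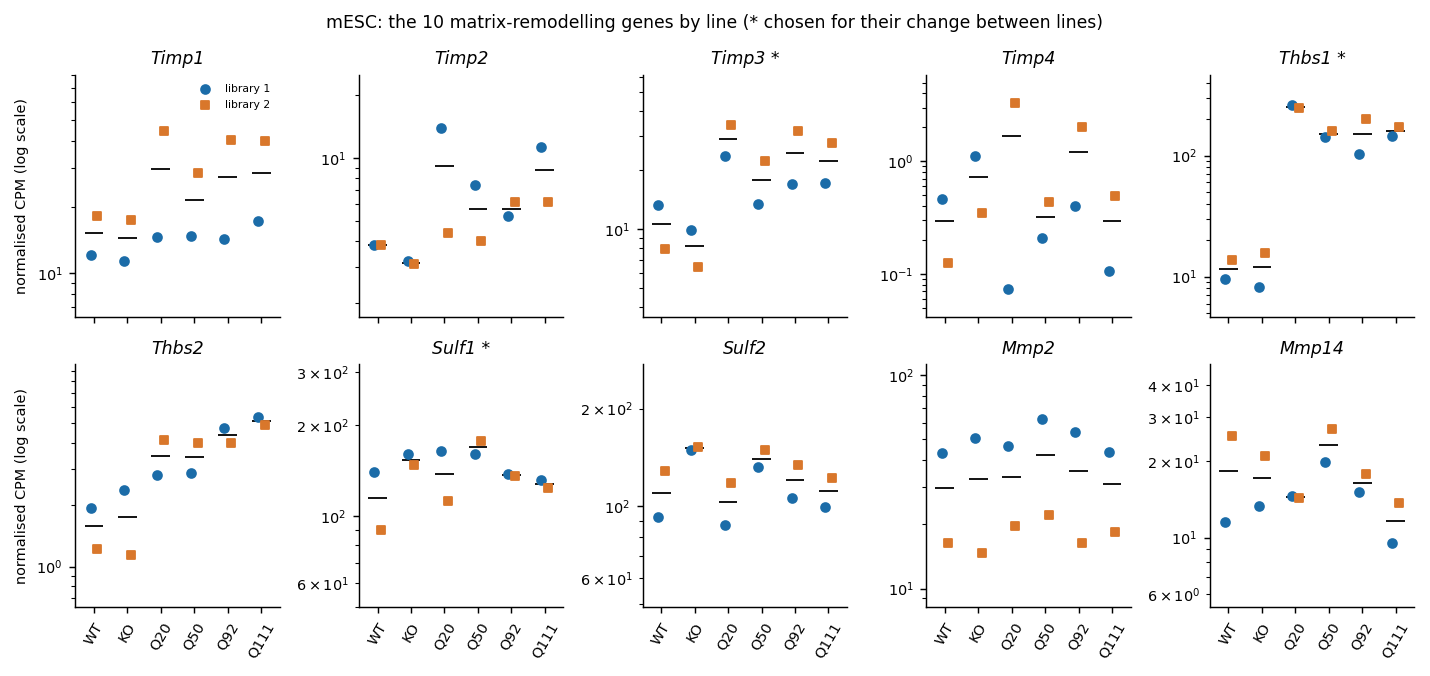
Normalised CPM (log axis) of the 10 genes in the 12 mESC libraries by line; circles are library 1, squares library 2 and bars their mean. Thbs1 is high in the 4 knock-in lines, and Mmp2 is higher in library 1 than in library 2 in each of the 6 lines.

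In mESC several of these genes separated the 2 replicate numbers. Mmp2 was at 43.1 to 62.4 CPM in the libraries numbered 1 and at 14.7 to 22.1 CPM in those numbered 2, lower in 6 of 6 lines (-1.44, SE 0.101, adjusted p = 0.000127 by limma with lines as groups). Timp1 was at 11.3 to 17.3 CPM in number 1 and 17.5 to 44.7 CPM in number 2, higher in 6 of 6 lines (1.04, SE 0.158, adjusted p = 0.00168). Sulf2 (0.29, adjusted p = 0.0158), Mmp14 (0.46, adjusted p = 0.0361) and Thbs1 (0.44, adjusted p = 0.0417) were also higher in number 2. This comparison, added after the data were seen, called 5 of the 10 genes beside 43.3% of all genes, 20.5% higher and 22.8% lower in number 2, so the members moved about as often as other genes. Leaving out any library of WT, KO, Q50, Q92 or Q111 lowered the count to 3, with Thbs1 (adjusted p up to 0.107) and Mmp14 (up to 0.0797) lost. The labels do not say what the replicate number marks in mESC.

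The slope on repeat length differed between NPC and mESC for 1 of the 7 relatives, beside 4.86% of 12321 genes tested in both. Timp2 had a slope lower by 2.87 in NPC (difference -2.87, SE 0.589, adjusted p = 0.0138 by limma), and 0 relatives were called with a higher one. The slopes of the chosen genes differed in the same direction, by -3.52 for Timp3, -2.04 for Thbs1 and -5.94 for Sulf1, as a description. The Timp2 difference lost its call without the Q20 line, without the Q111 line and with 1 mean value per line, where the adjusted p reached 0.278.

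Other genes of the same machinery came from lists of 121 matrix metalloproteinases, ADAMTS proteases, matricellular proteins, protease regulators, heparan sulfate genes and thrombospondin receptors, of which 91 were tested in each cell type. In NPC 59 of the 91 (64.8%) differed among the lines, beside 38.0% of all genes, and 7 of the 59 would not have passed the filter without the libraries of 1 line. By list these were 15 of 17 ADAMTS genes, 8 of 10 receptors, 6 of 8 metalloproteinases, 13 of 18 matricellular genes, 4 of 8 protease regulators and 13 of 30 heparan sulfate genes. In mESC 0 of 91 were called among the lines by limma, beside 0.201% of all genes. With the replicate block 16 were called, beside 8.67% of all genes.

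In NPC Q20 against WT, 15 of the 91 rose and 10 fell, with a median change of -0.08 beside -0.02 over all genes. These were 27.5% of the list, beside 14.5% of all genes, 9.97% higher and 4.57% lower. The largest rises were those of Gpc3, a glypican that carries heparan sulfate chains (3.79, SE 0.218, adjusted p = 1.38e-05), which was at 55 and 50.9 CPM in Q20 and 2.73 and 3.07 CPM in WT, and the membrane-anchored protease Mmp25. Mmp25 was at 7.41 and 7.61 CPM in Q20 and at most 0.306 CPM in the other 10 NPC libraries, so it passed the filter through Q20 alone and its test is not used. Of the 15 rises, 5 would not have passed the filter without the libraries of 1 line. The largest falls were the neural stem cell matrix protein Tnc (-2.72, SE 0.322, adjusted p = 0.000722) and the broad protease inhibitor A2m (-2.59, SE 0.365, adjusted p = 0.0019). The count ran from 6 to 38 over the alternatives.

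Over the repeat length in NPC, 26 of the 91 were called, 10 rising and 16 falling, with a median of -0.26 beside 0.04 over all genes. These were 28.6% of the list, beside 22.0% of all genes, 12.0% rising and 10.1% falling. The matricellular list gave 1 rise and 7 falls among 18, and the ADAMTS list 5 rises and 2 falls among 17. Postn, a collagen-binding matricellular protein, had a slope of -4.09 (SE 1.03, adjusted p = 0.0262 by limma). It was at 10.7 and 8.23 CPM in Q20, 29.3 and 29.5 in Q50 and at most 0.474 in Q92 and Q111. Its level thus rose from Q20 to Q50 before it fell, and its call was lost in 6 of 19 alternatives. Mmp25 was called as well, through its Q20 libraries alone. Of the 16 falls, 3 would not have passed the filter without the libraries of 1 line. The procollagen-cleaving protease Adamts14 rose by 3.08 (SE 0.753, adjusted p = 0.0236) and the integrin subunit Itga4 by 2.58 (SE 0.769, adjusted p = 0.0451). Without Q20 these 2 gave 0.45 and 0.04 and were not called. With 1 mean value per line 0 of the 91 were called.

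In NPC KO against WT, 4 of the 91 were called (4.4%, beside 1.42% of all genes), 3 higher and 1 lower. This count changed under some alternatives and depended on the second WT library. Adamts17, a secreted ADAMTS protease, rose by 1.32 (SE 0.151, adjusted p = 0.00757), from 1.98 and 1.56 CPM in WT to 5.94 and 5.82 CPM in KO. Itgb1, the beta subunit shared by most matrix-binding integrins, rose by 0.74 (SE 0.131, adjusted p = 0.0394), and A2m fell by 1.93 (SE 0.365, adjusted p = 0.0487). A2m lost its call in 8 of 11 alternatives and Itgb1 in 5 of 11. For Q20 against WT in mESC the laminin-binding integrin subunit Itga6 fell by 1.11 (SE 0.174, adjusted p = 0.0481), from 292 and 388 CPM to 160 and 150 CPM, as the 1 call among the 91, beside 0.323% of all genes. With the replicate block 23 of the 91 were called, beside 10.6% of all genes. Itga6 lost its call in 6 of 11 alternatives. The slope differed between cell types for 7 of 80 list genes, 2 higher and 5 lower in NPC, led by the heparan sulfate 6-O-sulfotransferase Hs6st2 (2.16), Adamts1 (1.78), Mmp11 (-2.84) and Postn (-4.18). These 7 were 8.75% of the list genes, beside 4.86% of all genes. Hs6st2 lost its call in 8 of 26 alternatives, Adamts1 in 22 of 26, Mmp11 in 5 of 27 and Postn in 16 of 26.

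The genes most like the chosen members were ranked by Pearson's r of log2(CPM + 1) over the 12 libraries of a cell type, which share lines and, in mESC, replicate numbers. For Thbs1 in mESC they were 3 fibrillar or fibril-associated collagen genes, Col5a2 (r = 0.988), Col12a1 (0.983) and Col1a2 (0.983). Timp3 in mESC came nearest to Sh3kbp1 (0.956), the matrix gene Fbln2 (0.934) and Synpo2 (0.93), and Sulf1 in mESC reached 0.845 at most, with Spaca6. In NPC, where the Q20 libraries set much of the range, Thbs1 was nearest to Lhx5, Cacna2d2 and Epha10 (each 0.99). Sulf1 in NPC was nearest to the gap junction gene Gjb2 (0.991), the scavenger receptor Colec12 (0.984) and the VEGF receptor Flt1 (0.979). Timp3 in NPC was nearest to Fbxo44 (0.989), Atp1a4 (0.984) and the gamma-secretase subunit Aph1c (0.977).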

How the data were processed

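Total RNA of 24 samples was sequenced on a NextSeq 500 as paired-end reads, per the labels' protocols; CASAVA 1.8, STAR and GRCm38.p6 are named, without a role, in the submitters' processing notes. Which tool counted the reads, and whether by strand, is not given in the sources used here. The authors deposited a table of normalised CPM, a scaled signal, for each cell type. Dividing the values of a library by what 1 read is worth gave whole reads, within 0.01, for 100% of them in 24 of 24 libraries, and TMM factors from the recovered reads matched the scaling to 1e-11.

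Values were tested as log2(CPM + 1), pseudocount 1, with limma 3.58.1 in R 4.3.3 (two-sided, variance trend, Benjamini-Hochberg adjusted p under 0.05) for genes of at least 1 CPM in at least 2 libraries: 13916 in mESC and 13206 in NPC. Models held 1 mean per line over 12 libraries, or a slope over the 8 knock-in libraries. The titles give 92 repeats and the growth protocol 89; 92 was used. edgeR 4.0.16 on recovered reads, the replicate block, other filters, pseudocounts, scalings and left-out libraries were alternatives. The scripts were tested on simulated data with known changes.

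Same-numbered mESC libraries deviated together in 15 of 15 pairs of lines (correlation 0.25 to 0.547), so the numbers pair them; in NPC 3 of 15 exceeded 0.1 (-0.0495 to 0.467), those among WT, KO and Q50, so the numbers were not taken to pair the NPC libraries as a whole. The members and gene lists were chosen with earlier results of these data known. The text names the 10 members, Htt and, per comparison, up to 2 rises and 2 falls, the largest among called list genes whose higher group averaged 5 CPM or more without overlap. Per-length levels used the joined exons of GENCODE M21, and promoters came from RefSeq, with entries for 7 of the 10 genes. No level of the 10 genes was set against one of the other cell type, since each table had its own scaling. For the same reason the Stmn2 levels of NPC and mESC show presence and not a difference. Folds are ratios of mean CPM; log2 changes understate those of low genes.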

Additional observations from a re-analysis of the deposited data

Results flagged for a closer look

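The slope of Timp2 on repeat length differed between the cell types by a direct test of that difference. Over 91 repeats it was lower by 2.87 on the log2 scale in NPC than in mESC (value -2.87, SE 0.589, adjusted p = 0.0138 by limma). In NPC the line means fell from 85.5 CPM in Q20 to 28.4, 17.3 and 9.04 CPM in Q50, Q92 and Q111. In mESC they were 9.14, 5.7, 5.7 and 8.71 CPM, with the 2 Q20 libraries at 14 and 4.34 CPM. The call was lost without the Q20 line, without the Q111 line and with 1 mean value per line (adjusted p up to 0.278 by limma).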

How the results depend on the processing

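Counts of called relatives kept within 1.5 times under other pseudocounts, filters, scalings, edgeR and other spreads, with the exceptions here. The count for NPC KO against WT changed without the second WT library, a fit that leaves 1 WT library and whose calls are not read. The NPC trend gave 0 with 1 mean value per line and 2 without the Q20 line, and the slope difference between NPC and mESC gave 0 with 1 mean per line, 0 without Q20 and 0 without Q111. The mESC replicate comparison gave 3 to 5 over left-out libraries. With the replicate block the relatives called were 0 in the 4 mESC comparisons and 7, 0, 4 and 1 among the lines, for KO, for Q20 and for the trend in NPC, and 1 for the slope difference, each as without it; in NPC the WT, KO and Q50 libraries of 1 number deviated together and the others did not. Of 518 recomputed single-gene changes, 383 kept their call, 135 lost it and 0 reversed. The cause was not tested. Over all genes the block raised the calls from 28 to 1206 among the mESC lines, from 2 to 16 for KO, from 45 to 1475 for Q20 and from 599 to 1005 for the slope difference, and lowered them from 2909 to 2015 for the NPC trend and from 188 to 145 for NPC KO. edgeR on the recovered reads called 20, 2, 12 and 0 genes among the mESC lines, for KO, for Q20 and for the trend, against 28, 2, 45 and 0 by limma, and 4816, 116, 1508 and 2860 in NPC, against 5020, 188, 1920 and 2909. Of the other matrix genes, those called ran from 37 to 71 among the NPC lines, 0 to 27 for the NPC trend and 0 to 9 for the slope difference. Q92 taken as 89 repeats changed no count of relatives. Depth limits the low genes: Sulf1 in WT NPC rests on 33 and 63 reads.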
